A study of Mus musculus with 21 samples.

Results

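The genes described here are 10 genes of the actin cytoskeleton around serum response factor: *Srf*, *Actb*, *Actg1*, *Acta2*, *Tagln*, *Vcl*, *Tpm1*, *Myl9*, *Flna* and *Zyx*. They were chosen by name, for their known roles, because *Ddx6* KO colonies were described as changed in shape. Earlier results of these data were known when they were chosen. Each symbol was matched to its Ensembl identifier in the deposited count tables. All 10 were found among the 51559 genes of the tables. Of these 10, 9 were among the 14518 genes that passed the filter of at least 3 CPM (counts divided by the library total and scaled up alike in all libraries) in at least 3 libraries, and *Acta2* did not pass it.

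SRF is a transcription factor that binds the CArG box, a run of 2 C, 6 A or T and 2 G. It works with 2 families of cofactors. MRTFs are held back by unpolymerized actin and enter the nucleus when actin assembles into filaments, and they lead SRF to genes of the cytoskeleton. Ternary complex factors (TCFs) answer to ERK signalling and lead SRF to immediate early genes. Actin genes and *Srf* itself are known SRF targets, so that the state of the actin filaments feeds back on the supply of actin. Mouse embryonic stem cells (ESCs) express mainly the cytoplasmic beta and gamma actins, while smooth muscle alpha actin and transgelin are best known from contractile cells.

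The data came from V6.5 mouse ESCs grown in knockout DMEM with serum, LIF and 2i. There were 7 cultures, of which 3 were wild type, 2 were *Ddx6* KO clone 1 and 2 were *Ddx6* KO clone 2. DDX6 is an RNA helicase found in P-bodies, and whether it links translation to mRNA decay was a question of the study. Both knockout lines were made with Cas9 and the same guide, each grew from 1 clone, and the study describes a small insertion in one and a large deletion in the other. Cultures of a clone share its history, so that an effect of the knockout and a property that both clones carry cannot be told apart. Every culture was labelled with 500 µM 4-thiouridine (4sU) for 30 min. Its RNA was then split into nascent RNA, which was pulled down through the 4sU label, and total RNA depleted of rRNA, which gave 14 libraries. The label therefore marks RNA made within the labelling time, and the total-over-4sU ratio is the measure that the study reads as mRNA stability. No source says that cultures of a clone were started separately, and p values measure only the spread between these cultures.

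The 4sU libraries held 2441639 to 3570192 counts over 2 sequencing runs, and the total RNA libraries 5724179 to 7369651. A floor of 3 counts corresponds to 1.23 CPM in the smallest 4sU library and to 0.524 CPM in the smallest total RNA library. Floors and intervals cover counting error only. *Ddx6* itself was measured at 333 to 391 CPM in wild-type total RNA and at 21.5 to 67.7 CPM in *Ddx6* KO. It fell by 3.12 on the log2 scale (SE 0.32, edgeR adjusted p = 9.22e-06), and in nascent RNA its change was -0.41 (SE 0.32, edgeR adjusted p = 0.348). All 12 ESC markers passed the filter, and their summed total RNA was 5403 to 5608 CPM in wild type and 5636 to 5860 CPM in *Ddx6* KO. The sum holds changes in both directions. At an edgeR adjusted p below 0.05, 6 of the 12 were higher in total RNA and 3 lower, beside 19.5% and 31% of all genes tested. *Nanog* went from 634 to 955 CPM and *Tfcp2l1* from 1340 to 942 CPM. *Nanog* (log2 fold change 0.59 in total RNA) lies on chromosome 6, whose 735 tested genes had a median of 0.43. How much of the rise of *Nanog* belongs to the chromosome was not tested. Of 10 fibroblast markers, 4 passed the filter, and the list summed to 15.2 to 18.2 CPM in wild type and 17.3 to 19.5 CPM in *Ddx6* KO. Of the 4, *Thy1* rose from 2.54 to 7.11 CPM in total RNA (1.47, edgeR adjusted p = 2.02e-06) and *Col1a1* from 2.32 to 4.65 CPM (0.97, edgeR adjusted p = 0.00486), *Pdgfrb* fell from 9.05 to 4.74 CPM (-0.94, edgeR adjusted p = 0.000203), and *Twist1* did not pass the test. The fibroblast genes *Dcn*, *Lum*, *Postn* and *Col3a1* were each below 0.3 CPM in every group mean. Smooth muscle markers, of which 2 of 8 passed the filter, summed to 22.5 to 25.2 CPM in wild type and 40.5 to 44.4 CPM in *Ddx6* KO, of which *Des* made up most, while *Myh11* and *Actg2* stayed below 1 CPM in every group mean. Primitive endoderm markers (5 of 8 tested) summed to 256.8 to 263 CPM in wild type and 215.5 to 230.0 CPM in *Ddx6* KO, mesoderm markers (4 of 8) to 22.95 to 30.5 and 23.95 to 26.1 CPM, and trophoblast markers (5 of 8) to 89.1 to 94.5 and 111 to 124 CPM. Members of each list moved in both directions in total RNA. *Lama1* and *Col4a1* made up most of the primitive endoderm sum. There *Lama1* fell (-0.33), while *Gata4* (0.65) and *Dab2* (0.74) rose. Of the mesoderm markers 1 rose (*Kdr*) and 2 fell (*Gsc* and *Eomes*). Of the trophoblast markers 2 rose (*Krt8* and *Krt18*) and 1 fell (*Ascl2*). In bulk RNA, fewer cells of a type and less RNA per cell cannot be told apart.

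Promoter windows of RefSeq on GRCm38.p6, from 250 bases before to 50 bases after the start, were at hand for 8 of the 10 genes (not for *Actb* and *Tagln*). The CArG box, searched as 2 C, 6 A or T and 2 G on both strands, which read alike, was in 4 of these 8 windows (50%) and in 535 of all 32851 windows (1.63%). The stretches that hold the boxes are shown because the box is the binding sequence of SRF, after which this group of genes is named. Capitals mark the CArG boxes, and each line reads 5′ to 3′ on the strand of its gene.
Srf: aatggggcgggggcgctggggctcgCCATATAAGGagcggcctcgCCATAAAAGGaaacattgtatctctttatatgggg
Actg1: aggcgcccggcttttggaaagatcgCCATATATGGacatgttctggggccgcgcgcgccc
Vcl: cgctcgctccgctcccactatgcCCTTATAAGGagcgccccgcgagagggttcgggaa
Myl9: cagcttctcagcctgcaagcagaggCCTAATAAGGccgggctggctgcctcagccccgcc

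The *Srf* stretch is chr17:46556190-46556269 on the minus strand and carries 2 boxes, at 82 to 73 and at 62 to 53 bases before the start. The *Actg1* stretch is chr11:120348551-120348610 on the minus strand, with the box 90 to 81 bases before the start. The *Vcl* box lies farthest out, 227 to 218 bases before the start, in chr14:20929148-20929205 on the plus strand. The *Myl9* box lies 161 to 152 bases before the start in chr2:156775278-156775337 on the plus strand. The windows of *Acta2*, *Tpm1*, *Flna* and *Zyx* held no such box, which says only that these letters are not in these windows. That of *Acta2* held 1 run that differs from the box by 1 G or C at the first or last of the 6 inner bases. A G or C at the other inner bases was not searched for. The window of *Flna*, chrX:74246485-74246784 on the minus strand, lies inside the annotated gene, whose 5′ end is at 74249820. Of the genes with a box, *Srf*, *Actg1* and *Myl9* fell in nascent RNA and *Vcl* rose, as given below. Of those without, *Tpm1* fell, *Zyx* rose, *Flna* did not pass the test and *Acta2* did not pass the filter. A relation of the box to the direction of change was not tested.

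To ask how these genes differed between *Ddx6* KO and wild type, nascent RNA, total RNA and their ratio were each compared in 1 edgeR model over the 14 libraries, and a gene is said to have risen or fallen at an adjusted p below 0.05. In nascent RNA, 7 of the 9 tested genes changed, against 41.6% of all 14518 genes tested. *Srf*, *Actb*, *Actg1*, *Tpm1* and *Myl9* fell, and *Vcl* and *Zyx* rose. All genes tested were split evenly, with 20.6% higher and 21% lower. In total RNA, 5 of 9 changed, against 50.5% of all genes. Here *Actb*, *Tpm1* and *Zyx* rose and *Srf* and *Actg1* fell, while 19.5% of all genes were higher and 31% lower. In the total-over-4sU ratio, 4 of 9 changed, all upward: *Srf*, *Actb*, *Tpm1* and *Zyx*. Among all genes, 12.4% changed in the ratio, 3.78% upward and 8.6% downward.

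The median log2 fold change of the 9 genes was -0.40 in nascent RNA, 0.14 in total RNA and 0.60 in the ratio. Over all genes tested the medians were 0.00, -0.10 and -0.09. Under the additional threshold of the study, an absolute log2 fold change above 1, *Srf* and *Zyx* passed in nascent RNA (10.9% of all genes), *Zyx* passed in total RNA (10.1%), and 0 of 9 passed in the ratio (1.08%). In the ratio edgeR gave 6 of 9 an unadjusted p below 0.05, and the share of all genes at that p was not counted. With scaling by library size only, the median of all genes moved to 0.21 in nascent RNA, 0.06 in total RNA and -0.14 in the ratio. Under that scaling, 3 genes were higher and 3 lower in nascent RNA. In total RNA, 5 were higher and 0 lower, both by library size only and with TMM within each assay, since *Vcl* and *Flna* were then called and *Srf* and *Actg1* were not. In the ratio, library size only gave 4 higher and 1 lower, *Vcl* being added.

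**Figure D1:**
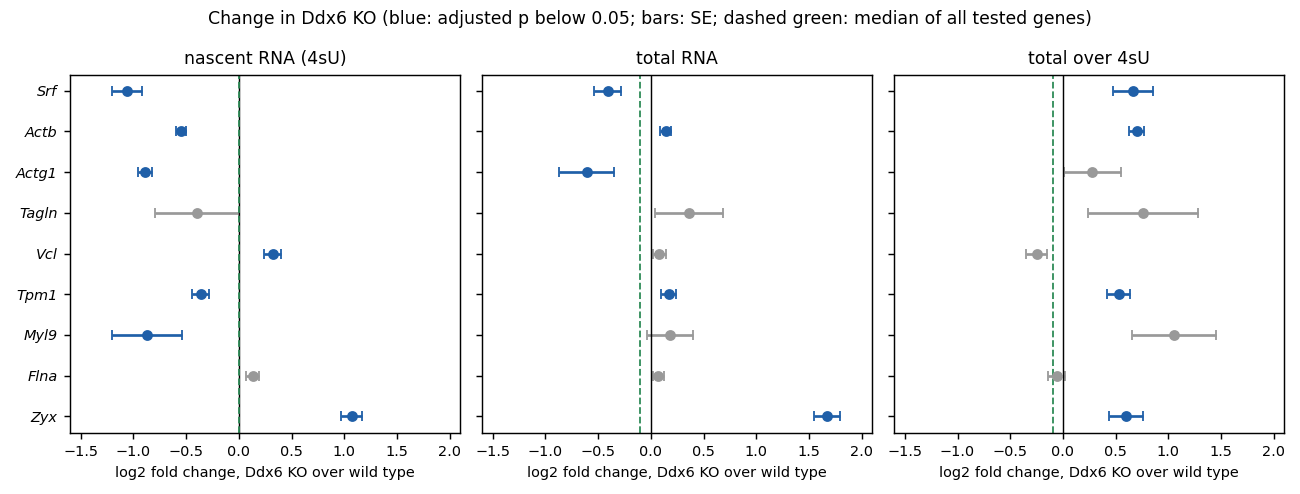
Log2 fold change of *Ddx6* KO over wild type (x axis) for the 9 tested genes (rows) in nascent RNA, total RNA and the total-over-4sU ratio. Points are edgeR estimates with SE as bars, blue marks an adjusted p below 0.05, and the dashed green line is the median of all 14518 genes tested. In nascent RNA *Srf* lies at -1.06 and *Zyx* at 1.07, and in the ratio the 4 blue points lie between 0.53 and 0.70.

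*Srf* (ENSMUSG00000015605, minus strand of chromosome 17, 46546839 to 46556162 on mm10) encodes the transcription factor. After TMM normalization, its nascent RNA was 165, 145 and 187 CPM in wild-type cultures 1 to 3. That of *Ddx6* KO was 79.2 and 98.0 CPM in the cultures of clone 1 and 85.8 and 56.5 CPM in those of clone 2. All 4 knockout cultures lay below all wild-type cultures, and *Srf* fell 2.09-fold (log2 fold change -1.06, SE 0.14, edgeR adjusted p = 7.65e-06). Total RNA of *Srf* was 66.5, 62.6 and 70.5 CPM in wild type and 46.9, 50.3, 56.1 and 47.0 CPM in *Ddx6* KO. The groups did not overlap here either, and the fall was 1.33-fold (-0.41, SE 0.13, edgeR adjusted p = 0.0179). The log2 ratio of total over 4sU went from -1.30 ± 0.10 (SD, n = 3) in wild type to -0.64 ± 0.29 (SD, n = 4), and it rose by 0.66 (SE 0.19, edgeR adjusted p = 0.0331). *Srf* RNA was thus lower in both kinds of library, by less in total than in nascent RNA.

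The fall of *Srf* in nascent RNA was called in all 21 settings tried, with values from -1.23 to -0.86. Its change in total RNA was called in 16 of 21 settings and its ratio in 17 of 22, and leaving out wild-type culture 1 gave edgeR adjusted p values of 0.0717 and 0.133. Neither was called without wild-type culture 3 or without the first culture of clone 1, and the ratio not without the first culture of clone 2 (edgeR adjusted p = 0.0517). The smallest of these estimates in total RNA was -0.36.

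**Figure D2:**
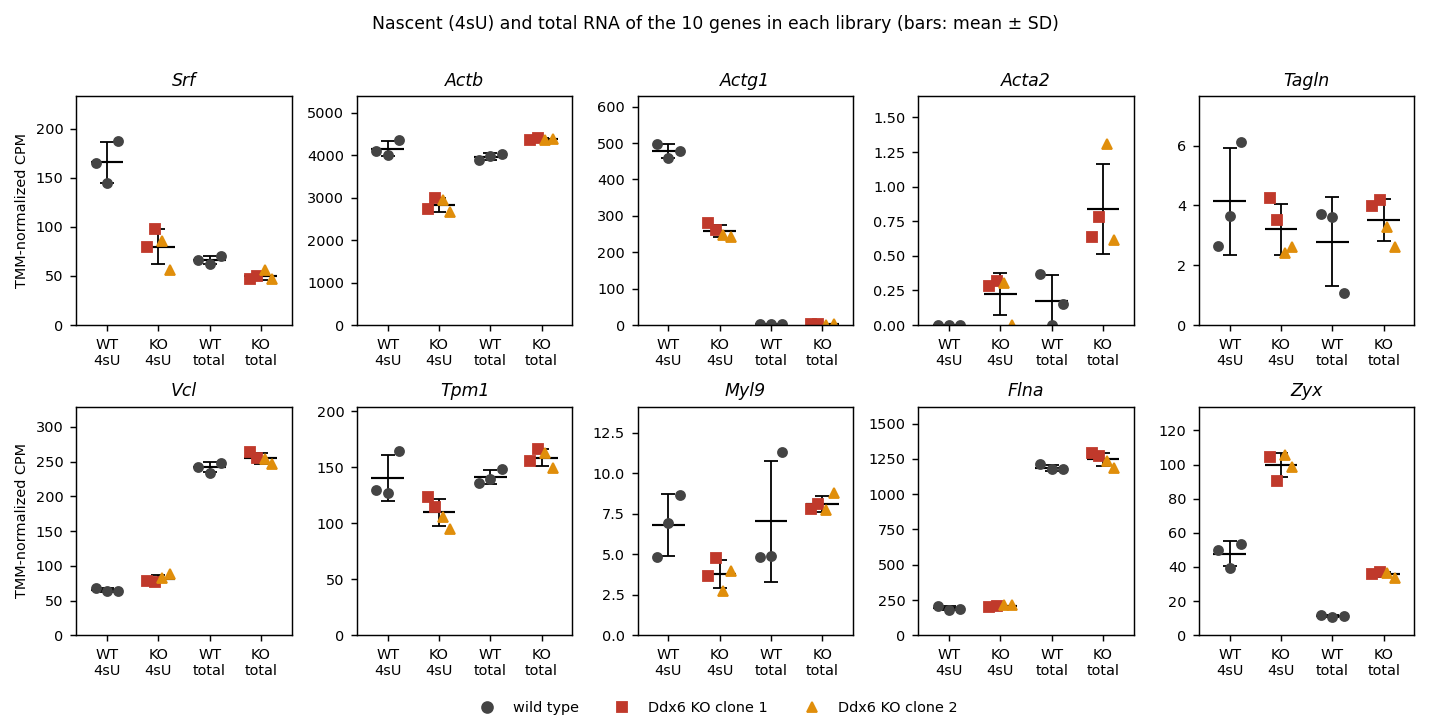
TMM-normalized CPM (y axis, from 0, 1 panel a gene) in each library of wild type (grey), *Ddx6* KO clone 1 (red) and clone 2 (orange), for 4sU and total RNA (x axis), with mean and SD as bars. *Srf* and *Actb* 4sU points of the knockout lie below all wild-type points, *Zyx* points lie above them in both assays, and *Actg1* is near 480 CPM in wild-type 4sU and below 5 CPM in total RNA.

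*Actb* (ENSMUSG00000029580, minus strand of chromosome 5, 142903115 to 142906754) encodes beta actin, the main cytoplasmic actin. In nascent RNA it was at 4097, 4020 and 4369 CPM in wild type and 2733, 2988, 2947 and 2666 CPM in *Ddx6* KO. These groups were far apart, and *Actb* fell 1.47-fold (-0.55, SE 0.05, edgeR adjusted p = 3.51e-14). Total RNA went the other way, with 3889, 3977 and 4042 CPM in wild type and 4361, 4406, 4367 and 4383 CPM in *Ddx6* KO. The rise was small, 1.10-fold (0.14, SE 0.05, edgeR adjusted p = 0.0148), and the 4 knockout cultures had an SD of 20.1 CPM. The log2 ratio of *Actb* was -0.07, -0.02 and -0.11 in wild type and 0.67, 0.56, 0.57 and 0.72 in *Ddx6* KO. This 1.62-fold rise (0.70, SE 0.07, edgeR adjusted p = 1.14e-10) was called in all 22 settings, with values of 0.65 to 0.79. The rise in total RNA was called in 18 of 21 settings, and without wild-type culture 1 or 2 it was 0.13 or 0.14, with edgeR adjusted p values of 0.0683 and 0.0513.

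*Actg1* (ENSMUSG00000062825, minus strand of chromosome 11, 120345690 to 120348542) encodes gamma actin, the other cytoplasmic actin. In nascent RNA it was at 498, 459 and 480 CPM in wild type and 279, 261, 249 and 242 CPM in *Ddx6* KO. The gene fell 1.86-fold (-0.89, SE 0.07, edgeR adjusted p = 5.57e-17), a fall called in all 21 settings with values of -1.02 to -0.69. In total RNA, *Actg1* had only 22, 20 and 24 counts in wild type and 24, 17, 8 and 18 counts in *Ddx6* KO, or 3.67 ± 0.399 (SD, n = 3) and 2.46 ± 1.15 CPM (SD, n = 4). The groups overlapped, and the fall of 0.61 on the log2 scale (SE 0.26, edgeR adjusted p = 0.0438) was called in 7 of 21 settings. Without the first culture of clone 2, which had 8 counts, it was -0.32 with an edgeR adjusted p of 0.302, and it was not called either without any 1 of the 3 wild-type cultures or without the second culture of clone 1. The ratio did not pass the test (0.28, SE 0.27, edgeR adjusted p = 0.577).

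The values of *Actg1* depended on how it was sequenced. In wild-type 4sU libraries, the single-end run of 50-base reads gave 86.2 ± 9.001 CPM (SD, n = 3) and the paired-end run of the same libraries 922 ± 20.9 CPM, 10.7 times as much. In *Ddx6* KO the runs gave 47.9 and 598 CPM. Among 7654 tested genes with at least 20 single-end CPM, the paired-end level was 0.867 times the single-end level at the median, and 0 genes had a higher ratio of runs than *Actg1*. *Gapdh*, an enzyme gene with many processed pseudogenes, came near it at 9.50. Counts were of uniquely mapped reads, and 36.3% of the 2927 windows of 50 bases in annotated *Actg1* transcripts also occur in transcripts of 20 genes on other chromosomes, of which the processed pseudogene *Gm12715* shares 33.2%. For *Actb* this share was 9.12%, for *Acta2* 0.326%, for *Zyx* 0.356%, and for the other 6 genes 0%.

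The total RNA libraries were sequenced with single-end reads alone. The total-over-4sU level of *Actg1* in wild type was -6.82 on the log2 scale of CPM, lower than in all but 10 of 14518 genes, and with the single-end run alone it was -4.46, with 26 genes below it. *Actb*, the close relative of *Actg1* in sequence, was at -0.06, with 46.3% of genes below it. The level of *Actg1* is therefore uncertain, and the part of shared sequence in it was not tested. Within each run, the nascent change was alike, at -1.02 with the single-end run and -0.84 with the paired-end run, and both were called.

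**Figure D3:**
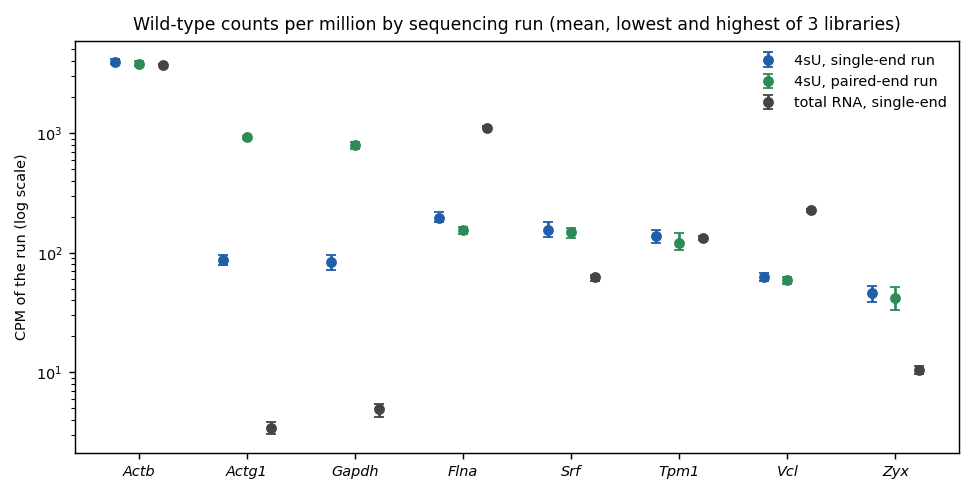
CPM of the run (y axis, log scale) in the wild-type libraries for 7 of the genes and *Gapdh* (x axis), for the single-end and paired-end runs of the 4sU libraries and for total RNA; points are means and bars span the lowest to highest of 3 libraries. *Actg1* and *Gapdh* lie near 86 and 83 CPM in the single-end run and near 922 and 791 CPM in the paired-end run, while the points of the other 6 genes lie close together for the 4sU runs.

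*Acta2* (ENSMUSG00000035783, minus strand of chromosome 19, 34241090 to 34255336), the smooth muscle alpha actin gene, was near the floor of these libraries. In nascent RNA it had 0 counts in all 3 wild-type libraries, which allows up to 0.357 CPM over the group, and 3 counts over the 4 *Ddx6* KO libraries. In total RNA it had 2, 0 and 1 counts in wild type and 4, 6, 10 and 4 counts in *Ddx6* KO. Summed over libraries these were 3 of 19305385 and 24 of 26951141 counts, or 0.155 and 0.890 CPM. Every knockout library was above every wild-type library, and the ratio of the summed levels was 5.73, with an exact 95% interval of 1.74 to 29.7 that covers counting error only. *Acta2* was tested only in the fit without a filter on low counts, where edgeR gave an adjusted p of 0.0356 in total RNA. Of the smooth muscle markers, whose sum was higher in *Ddx6* KO as given above, *Des* rose from 18.3 to 35.6 CPM (0.97, SE 0.13, edgeR adjusted p = 1.15e-08), and *Cnn1* went from 0.826 to 0.197 CPM without passing the filter. Their part in the counts of *Acta2* was not tested.

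*Tagln* (ENSMUSG00000032085, minus strand of chromosome 9, 45929619 to 45936058) encodes transgelin, an actin-bundling protein of contractile cells. It was low in these ESCs, with 2.64, 3.65 and 6.12 CPM of nascent RNA in wild type and 4.25, 3.51, 2.41 and 2.63 CPM in *Ddx6* KO. In total RNA it had 3.70, 3.603 and 1.07 CPM in wild type, from 20, 22 and 7 counts, and 3.98, 4.18, 3.28 and 2.61 CPM in *Ddx6* KO. The groups overlapped in both. The changes were -0.40 (SE 0.40) in nascent RNA, 0.36 (SE 0.32) in total RNA and 0.76 (SE 0.52) in the ratio, with edgeR adjusted p values of 0.454, 0.37 and 0.388. Changes of this size were not detectable at this depth. Wild-type culture 3 set the values in total RNA and the ratio, which were both -0.05 without it.

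*Tpm1* (ENSMUSG00000032366, minus strand of chromosome 9, 67022590 to 67049406) encodes a tropomyosin, which winds along actin filaments. Its nascent RNA was 130, 126.5 and 164 CPM in wild type and 123, 115, 106 and 94.6 CPM in *Ddx6* KO. The highest knockout culture lay just under the lowest wild-type culture, and *Tpm1* fell 1.29-fold (-0.36, SE 0.08, edgeR adjusted p = 0.000361). The fall was not called with library size only (-0.16, edgeR adjusted p = 0.114), and without wild-type culture 3 it was -0.23 (edgeR adjusted p = 0.0333). Total RNA was 136, 139.5 and 148 CPM in wild type and 156, 166, 162 and 149 CPM in *Ddx6* KO. It rose 1.12-fold (0.17, SE 0.07, edgeR adjusted p = 0.0424), close to the threshold, and was called in 16 of 21 settings, but not without wild-type culture 1 (0.14, edgeR adjusted p = 0.158) or 2, the second culture of clone 1 or the first of clone 2. The log2 ratio of *Tpm1* was 0.06, 0.14 and -0.15 in wild type and 0.34, 0.54, 0.62 and 0.65 in *Ddx6* KO, a rise of 1.44-fold (0.53, SE 0.11, edgeR adjusted p = 0.000537) that was called in all 22 settings. *Tpm1* thus moved in the same directions as *Actb* in all 3 measures.

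*Myl9* (ENSMUSG00000067818, plus strand of chromosome 2, 156775420 to 156781658) encodes a regulatory light chain of myosin II, the motor that contracts actin filaments. Its nascent RNA was 4.85, 6.93 and 8.64 CPM in wild type, from 11, 19 and 24 counts, and 3.68, 4.79, 2.71 and 3.94 CPM in *Ddx6* KO, from 9 to 15 counts. The groups came within 0.1 CPM of each other, and the fall of 0.87 on the log2 scale (SE 0.33, edgeR adjusted p = 0.0317) was called in 9 of 21 settings. It was not called without wild-type culture 2 or 3, or without the first culture of either clone (edgeR adjusted p from 0.0604 to 0.139). Total RNA was 4.81, 4.91 and 11.3 CPM in wild type and 7.79, 8.10, 7.73 and 8.75 CPM in *Ddx6* KO. Wild-type culture 3 stood above all others in total RNA, and the change was 0.18 with it (SE 0.22, edgeR adjusted p = 0.519) and 0.73 without it (edgeR adjusted p = 0.0124). The log2 ratio was -0.01, -0.46 and 0.37 in wild type and 0.99, 0.70, 1.36 and 1.06 in *Ddx6* KO. These did not overlap, but the rise of 1.05 (SE 0.40) missed the threshold at an edgeR adjusted p of 0.0743. With culture as a block, which pairs the 4sU and total RNA of a culture, it was 1.08 with an edgeR adjusted p of 0.0361, and without wild-type culture 3 it was 1.39 with an edgeR adjusted p of 0.0296.

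*Vcl* (ENSMUSG00000021823, plus strand of chromosome 14, 20929433 to 21033673) encodes vinculin, which ties integrin adhesions to actin. Its nascent RNA was 68.3, 63.4 and 64.5 CPM in wild type and 77.8, 77.3, 83.1 and 87.7 CPM in *Ddx6* KO. All knockout cultures were above all wild-type cultures, and *Vcl* rose 1.25-fold (0.32, SE 0.08, edgeR adjusted p = 0.00143). With the paired-end run alone the rise was 0.30 with an edgeR adjusted p of 0.0659. Total RNA was 243, 234 and 248 CPM in wild type and 264, 255, 253 and 246 CPM in *Ddx6* KO. The groups overlapped, with a change of 0.08 (SE 0.06, edgeR adjusted p = 0.271). The log2 ratio was 1.82, 1.88 and 1.94 in wild type and 1.76, 1.71, 1.60 and 1.48 in *Ddx6* KO. It did not overlap, and its change of -0.25 (SE 0.10) had an edgeR adjusted p of 0.103. Among the genes with a CArG box in the windows at hand, the nascent RNA of *Vcl* rose and that of *Srf*, *Actg1* and *Myl9* fell.

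*Flna* (ENSMUSG00000031328, minus strand of chromosome X, 74223461 to 74249820) encodes filamin A, which crosslinks actin filaments. Its nascent RNA was 210, 179 and 187 CPM in wild type and 203, 207, 214 and 212 CPM in *Ddx6* KO. Total RNA was 1212, 1176 and 1176 CPM in wild type and 1293, 1274, 1238 and 1184 CPM in *Ddx6* KO. The groups overlapped in both. The changes were 0.13 (SE 0.06) in nascent RNA, 0.07 (SE 0.05) in total RNA and -0.06 (SE 0.08) in the ratio, with edgeR adjusted p values of 0.0996, 0.25 and 0.735. The nascent change was called without wild-type culture 1 (0.19, edgeR adjusted p = 0.0299), with library size only (0.33, edgeR adjusted p = 1.27e-05) and with no filter beyond 1 count (0.18, edgeR adjusted p = 0.0371), and without wild-type culture 2 it was 0.07. The estimates were close to the medians of the 453 tested genes of chromosome X, which were 0.16 in nascent and 0.07 in total RNA.

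*Zyx* (ENSMUSG00000029860, plus strand of chromosome 6, 42349828 to 42360213) encodes zyxin, a LIM protein of focal adhesions and stress fibres. Nascent RNA was at 50.2, 39.4 and 53.3 CPM in wild type and 105, 90.4, 106 and 98.5 CPM in *Ddx6* KO. The knockout cultures were all above the wild-type cultures, and *Zyx* rose 2.101-fold (1.07, SE 0.10, edgeR adjusted p = 1.59e-13). Total RNA was 12.03, 10.5 and 11.2 CPM in wild type and 35.8, 37.1, 36.3 and 33.3 CPM in *Ddx6* KO, a rise of 3.18-fold (1.67, SE 0.12, edgeR adjusted p = 1.86e-18). This was the largest change among the 9 genes, and both rises were called in all 20 settings that kept the gene. The log2 ratio went from -2.02, -1.86 and -2.20 to -1.54, -1.27, -1.53 and -1.55, which is 1.51-fold higher (0.60, SE 0.16, edgeR adjusted p = 0.00782) and was called in 18 of 21 settings. The ratio was not called without wild-type culture 3 (0.50, edgeR adjusted p = 0.0791).

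Genes of chromosome 6, where *Zyx* lies, were high in *Ddx6* KO. The median of the 735 tested genes of chromosome 6 was 0.53 in nascent RNA and 0.43 in total RNA, against -0.02 and -0.12 for all other chromosomes, and it was -0.13 in the ratio. *Zyx* stood above these medians, and 114 chromosome 6 genes had a larger nascent change, 46 a larger change in total RNA and 52 a larger change in the ratio. How much of its rise belongs to the chromosome was not tested. The other genes lie on chromosomes with medians between -0.06 and 0.16 in nascent RNA and between -0.12 and 0.07 in total RNA.

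**Figure D4:**
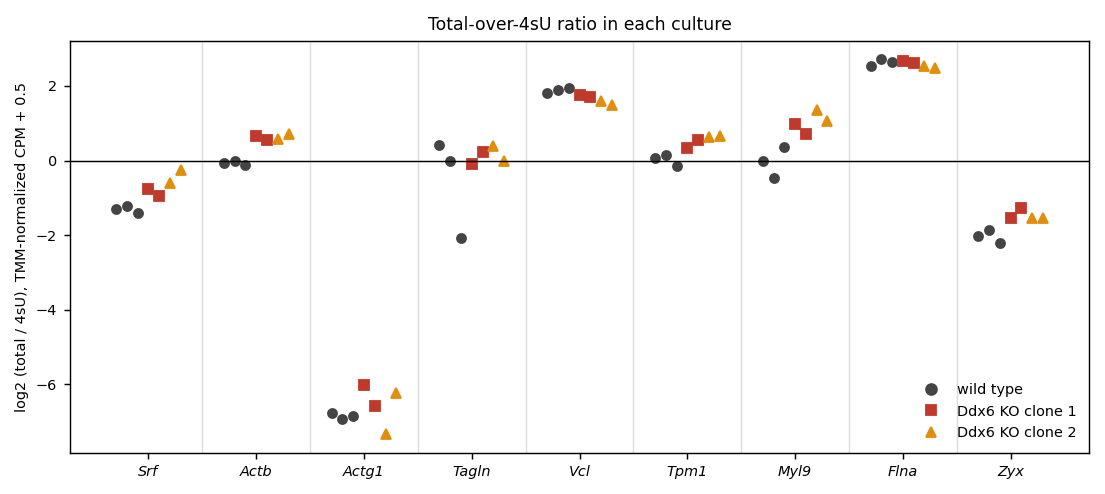
Log2 ratio of total RNA over 4sU, each as TMM-normalized CPM plus 0.5 (y axis), in each of the 7 cultures for the 9 tested genes (x axis). *Srf*, *Actb*, *Tpm1*, *Myl9* and *Zyx* are higher in all 4 knockout cultures than in the 3 wild-type cultures and *Vcl* is lower, while *Actg1* lies between -7.33 and -6.02.

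In the ratio, the groups of 6 of the 9 genes did not overlap (*Srf*, *Actb*, *Vcl*, *Tpm1*, *Myl9* and *Zyx*), against 22.9% of all genes tested. In nascent RNA 7 of 9 did not overlap, against 41.7%, and in total RNA 4 of 9, against 52.4%. The ratio and both of its parts come from the same libraries, so that these counts are not independent of each other.

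Levels of different genes are compared per kilobase of exon, in TMM-normalized CPM per kb. In wild-type total RNA, *Actb* was highest at 2068 CPM per kb, followed by *Flna* at 140, *Vcl* at 46.2, *Tpm1* at 29.5, *Srf* at 16.3, *Myl9* at 6.22, *Zyx* at 2.82, *Actg1* at 1.88, *Tagln* at 1.75 and *Acta2* at 0.0979. The ranges of neighbours over cultures overlapped only for *Actg1* and *Tagln*. In *Ddx6* KO total RNA, *Zyx* at 8.96 CPM per kb lay above *Myl9* at 7.18, and the ranges of *Tagln*, *Actg1* and *Acta2* overlapped in turn. Total RNA was sequenced with single-end reads alone, so that the place of *Actg1* is uncertain in both total RNA orders. In wild-type nascent RNA the order was *Actb* (2168 CPM per kb), *Actg1* (245), *Srf* (40.5), *Tpm1* (29.3), *Flna* (22.6), *Vcl* (12.5), *Zyx* (11.98), *Myl9* (6.03), *Tagln* (2.59) and *Acta2* with no count, and only *Vcl* and *Zyx* overlapped. The place of *Actg1* in this order depended on the run. In CPM of the single-end run it was at 44.2 CPM per kb (40.8 to 49.4 over 3 cultures), a range that overlapped that of *Srf* at 38.1 (32.9 to 44.5), and in the paired-end run at 472. In *Ddx6* KO nascent RNA, *Srf* dropped to rank 6 at 19.5 CPM per kb and *Zyx* reached rank 3 at 25.1. There *Zyx*, *Flna*, *Tpm1*, *Srf* and *Vcl* did not differ from their neighbours beyond their spread, nor did *Myl9* and *Tagln*.

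Between the clones, edgeR called 0 of the 9 genes in nascent RNA, total RNA or the ratio, against 0.172%, 0.296% and 0.00689% of all genes. At an unadjusted p below 0.05, for which the share of all genes was not counted, it gave 1 gene in nascent RNA, *Tpm1* with -0.25 for clone 2 minus clone 1 (SE 0.10, edgeR adjusted p = 0.625), and 0 genes in total RNA and in the ratio. For *Actb* the clone differences were -0.03 (SE 0.07) in nascent RNA, 0.00 (SE 0.07) in total RNA and 0.02 (SE 0.09) in the ratio, much smaller than its changes from wild type. For *Srf* the nascent difference was -0.32 (SE 0.16, edgeR adjusted p = 0.78), and for *Actg1* in total RNA it was -0.67 (SE 0.36, edgeR adjusted p = 0.779). With 2 cultures a clone, such differences are not settled. *Ddx6* itself was lower in clone 2 than in clone 1 in total RNA, by 1.49 on the log2 scale (SE 0.11, edgeR adjusted p = 9.7e-16).

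Around these genes, 5 lists of the same pathway were counted. Their counts stand beside the shares of all genes called, which were 20.6% higher and 21% lower in nascent RNA, 19.5% and 31% in total RNA, and 3.78% and 8.6% in the ratio. The cofactors of SRF comprised 8 genes, of which 5 were tested. In nascent RNA 3 rose and 0 fell, in total RNA 2 rose and 0 fell, and in the ratio 1 rose. With the paired-end 4sU run alone, *Elk4* was the 1 cofactor called in nascent RNA, so that *Mrtfa* and *Mrtfb* lost their calls, and with the single-end run alone 0 were called in the ratio. *Elk4*, a TCF, went from 15.4 ± 0.370 (SD, n = 3) to 30.3 ± 4.43 CPM (SD, n = 4) in total RNA (0.97, SE 0.12, edgeR adjusted p = 4.79e-10). *Mrtfb* rose in nascent RNA (0.35) and in total RNA (0.48, SE 0.10, edgeR adjusted p = 3.76e-05). *Mrtfa* rose in nascent RNA (0.42, SE 0.14, edgeR adjusted p = 0.0136) with a total RNA change of 0.02 (SE 0.11). The TCFs *Elk1* and *Elk3* had total RNA changes of 0.06 and 0.02 and did not pass in any measure. The muscle cofactors *Myocd* and *Fhl2* were among those that did not pass the filter.

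Of 38 further target genes of MRTF and SRF, 33 were tested. In nascent RNA 8 rose and 14 fell, in total RNA 5 rose and 15 fell, and in the ratio 6 rose and 5 fell, that is 22, 20 and 11 of 33 called beside 41.6%, 50.5% and 12.4% of all genes. The medians were -0.32, -0.19 and -0.05, beside 0.00, -0.10 and -0.09 for all genes. With library size only, 11 rose and 11 fell in nascent RNA and 9 rose and 9 fell in total RNA, and with TMM within each assay 7 rose and 11 fell in total RNA. The ratio counts went from 6 and 2 with TMM within each assay to 6 and 9 with library size only. *Ccn2*, which encodes a matrix-associated protein, fell from 713 ± 13.4 (SD, n = 3) to 145.5 ± 36.4 CPM (SD, n = 4) in nascent RNA (-2.30, SE 0.18, edgeR adjusted p = 1.35e-06) and by 1.5 on that scale in its total RNA. *Lima1*, an actin crosslinker, fell from 204 to 92.9 CPM in total RNA (-1.14, SE 0.07, edgeR adjusted p = 2.72e-19). *Itga5*, a fibronectin receptor subunit, rose from 67.6 to 111 CPM (0.71, SE 0.08, edgeR adjusted p = 6.79e-10), and *Pdlim7*, a LIM protein on actin filaments, rose from 24.7 to 44.5 CPM (0.85, SE 0.10, edgeR adjusted p = 1.99e-10). A CArG box was found for 7 of the 33 genes of this list with a promoter window at hand (21.2%). The lists are counted by gene, with a box in any of its windows, while the 1.63% above is a share of single windows.

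The immediate early genes of TCF and SRF comprised 12 genes with *Srf* among them, and 9 were tested. In both nascent and total RNA 6 rose and 2 fell, with medians of 0.80 and 0.63, and in the ratio 3 rose and 0 fell, so that 8, 8 and 3 of 9 were called beside 41.6%, 50.5% and 12.4% of all genes. With library size only these were 6 and 1 in total RNA and 3 and 1 in the ratio. *Junb*, an AP-1 factor, went from 21.2 to 86.0 CPM in total RNA (2.03, SE 0.11, edgeR adjusted p = 7.56e-16) and *Ier3* from 5.28 to 16.4 CPM (1.62, SE 0.16, edgeR adjusted p = 4.05e-13). Those that fell were *Srf* and *Mcl1*, an anti-apoptotic gene (-0.60, SE 0.05, edgeR adjusted p = 1.24e-15). *Srf* thus went against the direction of most genes of this list. A box was found for 2 of 9 genes with a window (22.2%).

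Of 28 genes of small GTPase signalling and actin assembly, 27 were tested. In nascent RNA 13 rose and 1 fell, in total RNA 11 rose and 5 fell, and in the ratio 2 rose and 5 fell. These are 14, 16 and 7 of 27 called, beside 41.6%, 50.5% and 12.4% of all genes. The medians were 0.21, 0.07 and -0.20, and with library size only 20 rose and 0 fell in nascent RNA, 19 rose and 3 fell in total RNA, and 2 rose and 9 fell in the ratio. Under that scaling 7114, 7090 and 2275 of all 14518 genes were called, and the medians of all genes were those given above. With TMM within each assay 3 rose and 3 fell in the ratio. *Rhob*, a small GTPase, rose from 30.9 to 120.0 CPM in total RNA (1.96, SE 0.08, edgeR adjusted p = 3.64e-28) and *Gsn*, the filament-severing gelsolin, from 5.78 to 19.96 CPM (1.80, SE 0.18, edgeR adjusted p = 4.05e-13). *Cfl2*, a cofilin that takes filaments apart, fell from 71.0 to 47.7 CPM (-0.57, SE 0.07, edgeR adjusted p = 2.66e-09), and *Limk2*, a kinase of cofilin, fell from 96.9 to 72.4 CPM (-0.42, SE 0.08, edgeR adjusted p = 8.13e-06). None of the 25 genes with a window had a box.

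Of 19 focal adhesion genes, 18 were tested. In nascent RNA 8 rose and 2 fell, in total RNA 6 rose and 2 fell (12 and 2 with library size only), and in the ratio 0 rose and 2 fell. The 8 of 18 called in total RNA are near the 50.5% of all genes, as are the 2 in the ratio to 12.4%, and 10 were called in nascent RNA beside 41.6%. The medians were 0.28, 0.13 and -0.05. *Flnc*, a filamin gene on chromosome 6, rose from 13.8 to 38.6 CPM in total RNA (1.48, SE 0.11, edgeR adjusted p = 6.58e-17), and *Lpp*, a relative of zyxin, rose from 44.0 to 80.0 CPM (0.86, SE 0.08, edgeR adjusted p = 1.15e-13). *Itgb5*, an integrin subunit, fell from 99.0 to 43.8 CPM (-1.17, SE 0.08, edgeR adjusted p = 3.17e-18). *Flna* had a total RNA change of 0.07 beside the 1.48 of *Flnc*. A box was found for 2 of 13 genes with a window (15.4%).

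**Figure D5:**
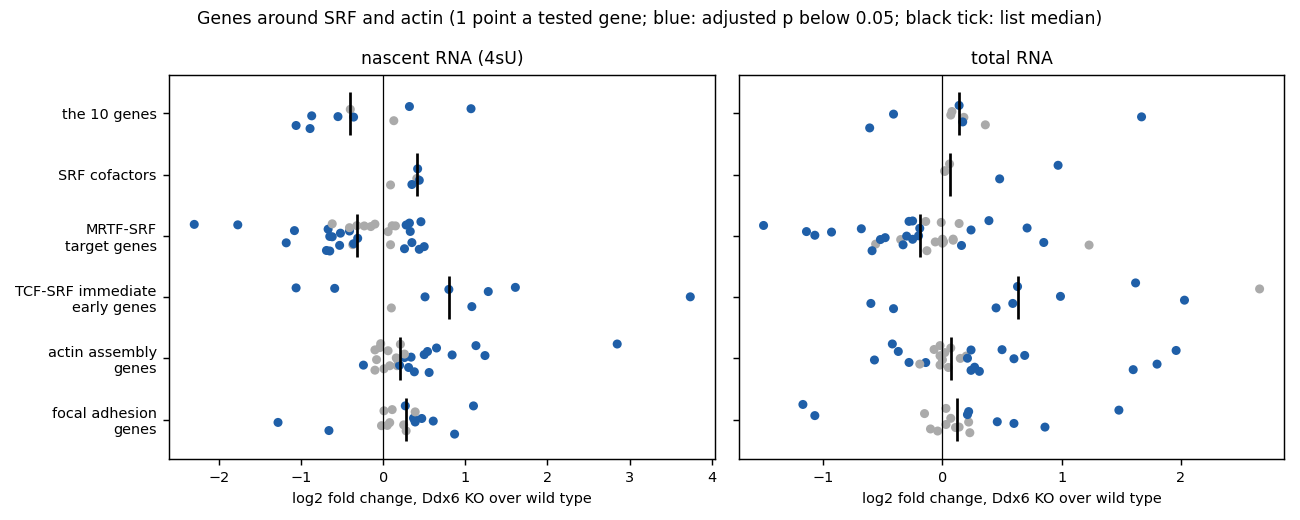
Log2 fold change of *Ddx6* KO over wild type (x axis) in nascent and total RNA for the genes described here and 5 related lists (rows), 1 point a tested gene. Blue marks an adjusted p below 0.05 and the black tick is the median of the list, from -0.40 for the genes described here to 0.80 for the immediate early genes in nascent RNA.

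The genes whose pattern was most like that of *Srf* over the 14 libraries were looked up by the root mean square difference of centred log2 CPM. They were *Hist1h4j* (0.163), *Ccng2* (0.185), *Hist1h2bl* (0.185), *Rbm38* (0.19) and *Hist1h1b* (0.19). Their nascent changes were between -1.30 and -0.88 and their total RNA changes between -0.60 and -0.32. Histone genes occur in near-identical copies, so that their counts are uncertain. Among the other actin genes, *Actb* came nearest at 0.698, followed by *Tagln* at 0.7 and *Tpm1* at 0.711, and *Actg1* was farthest at 2.90. The likeness is a description over 14 libraries, much of which is the distance between 4sU and total RNA.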

How the data were processed

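The authors deposited raw counts per gene. Per the labels and methods, reads were trimmed with cutadapt 1.14, mapped to mm10 with STAR 2.5.3a keeping unique mappers, and counted by strand with featureCounts 1.5.3 on Gencode M14. Counts of the single-end and paired-end runs of a 4sU library were summed. Gene lengths (bases of merged exons) were deposited beside the counts. The 92 spike-in rows held 0 counts and were left out.

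A gene was tested if 3 or more of the 14 libraries reached 3 CPM. The model in edgeR 4.0.16 (R 4.3.3) used quasi-likelihood fits with TMM factors and robust estimation and terms for genotype, assay and genotype by assay. Adjusted p values are Benjamini-Hochberg values over 14518 genes. TMM factors were 0.923 to 0.944 in wild type and 1.04 to 1.07 in *Ddx6* KO. CPM are TMM-normalized except for run levels, *Acta2* sums and the *Actg1* rank, which use library totals. Log2 ratios per culture use a pseudocount of 0.5 CPM. The code was tested on simulated data.

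All 10 genes are named. From each list, up to 2 called genes with the largest rise and 2 with the largest fall in total RNA without overlap of groups are named, along with all tested SRF cofactors. *Gapdh* was named after its values were seen. The genes and lists were chosen with earlier results of these data known. Symbols came from a table matching 51274 genes, promoters from RefSeq, and transcript windows from Gencode M21 of the same build.

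The pairing of 4sU and total RNA by culture comes from the split of its RNA. Deviations correlated at 0.00354 to 0.125 within cultures. Alternatives were DESeq2 1.42.0, limma-voom (limma 3.58.1), other scalings, filters, runs, blocks, single clones, cultures left out, the threshold of the study, and no chromosome 6 genes. Polysome data are not analysed here. Some genes that the naming rule selects are not reported here.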

Additional observations from a re-analysis of the deposited data

Results flagged for a closer look

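Of 29 groups of 4 knockout values examined for a sample far from the others, 2 stood out by Dixon's test at the 95% level, where 1.45 are expected by chance. In nascent RNA of *Acta2*, the second culture of clone 2 had 0 counts where the other 3 knockout libraries had 1 count each, a gap of 0.886 of the range. In the log2 ratio of total over 4sU of *Zyx*, the second culture of clone 1 was at -1.27 and the others at -1.55 to -1.53, a gap of 0.921 of the range. Without that culture the rise of *Zyx* in the ratio was still called.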

How the results depend on the processing

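Leaving out 1 culture gave 6 to 8 changed genes in nascent RNA, 1 to 5 in total RNA and 3 to 4 in the ratio. For total RNA the count was 1 without wild-type culture 1, where *Zyx* alone was called, 2 without wild-type culture 2, and 3 without the second culture of clone 1 or the first of clone 2. Among all genes tested, 7331 changed in total RNA in the main fit and 6490 to 7008 with 1 culture left out. Without wild-type culture 1 there were 6584 of 14328. In nascent RNA the main fit called 6035 of all genes, and 4989 to 5762 were called with 1 culture left out. Clone 2 alone gave 3 in total RNA, and so did the fit without chromosome 6 genes, from which *Zyx* drops out by construction. These 2 fits called 6378 and 6715 of all genes in total RNA. The threshold of the study gave 2 in nascent RNA, 1 in total RNA and 0 in the ratio, and the single-end run alone gave 2 in the ratio. Estimates of genes that were not called turned sign 9 times: *Tagln* to 0.21 in nascent RNA with the paired-end run alone and to -0.05 in total RNA and -0.05 in the ratio without wild-type culture 3 (leaving out any culture, -0.05 to 0.61 and -0.05 to 1.22), *Myl9* to -0.02 and -0.03 in total RNA without wild-type culture 1 or 2 (-0.03 to 0.73), *Actg1* to -0.01 in the ratio with clone 2 alone, and *Flna* in the ratio to 0.00 with DESeq2 size factors, 0.03 with TMM within each assay and 0.02 with clone 1 alone. The causes were not tested. Without division by length, 5 of 10 genes kept their rank in *Ddx6* KO nascent RNA. With culture as a replicate block, 5 genes changed in the ratio, *Myl9* being added. Wild-type and knockout cultures share only a number, with correlations of -0.0381 to 0.0885, and with that number as a replicate block 6 genes changed in nascent RNA, 6 in total RNA and 5 in the ratio, and 0 differed between clones in each. With that block 5755 of all genes changed in nascent RNA and 6924 in total RNA. Over all genes, 1797 changed in the ratio, against 1026 to 1157 without wild-type culture 1 or 2, with either clone alone or with the paired-end run alone. For the blocks, the single-end run alone and the other cultures left out, the counts of all genes in the ratio are not given here. The ratio counts above from those fits therefore stand without a comparison. Of the single-gene values under other settings, 470 stayed as in the main fit, whether called or not called. A further 49 lost their call, 15 gained one and 9 turned sign. All 81 between clones stayed not called. Low counts limit *Acta2*, *Tagln*, *Myl9* and, in total RNA, *Actg1*.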
